A study of Mus musculus with 4 samples.

Results

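The mature miRNAs of the miR-99/100 and miR-125 families were followed in mouse ES cells and in the epiblast-like aggregates (ELA) made from them. The members were taken by name: mmu-miR-99a-5p, mmu-miR-99b-5p, mmu-miR-99b-3p, mmu-miR-100-5p, mmu-miR-125a-5p, mmu-miR-125a-3p and mmu-miR-125b-5p, 7 of the 1907 mature miRNAs listed. Their hairpins lie beside let-7 hairpins in 3 genomic clusters, and the 10 other listed mature miRNAs of these clusters, with 6 let-7 guides from elsewhere, were read beside them. The species prefix is left out from here on.

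Small RNA was sequenced from 4 libraries of the feeder-free line E14Tg2A, of 129/Ola origin, with 1 library per condition. ES serum cells were grown in fetal calf serum with leukemia inhibitory factor (LIF) at 0 days in vitro. ES 2iL cells had been moved for several passages to serum-free 2iL medium, which holds the MEK inhibitor PD0325901, the GSK3 inhibitor CHIR99021 and LIF and is used to bring cells to the ground state of pluripotency. ELA serum and ELA 2iL were floating aggregates made from each kind of ES cell and kept for 2 days in a chemically defined minimal medium without serum, inhibitors or LIF, so the 2 ELA libraries differ in the earlier medium of their cells and share the medium they were collected in. Each library was made from RNA pooled over 3 sets of experiments, which leaves no biological replicate of a condition. In the labels, 1 descriptive field exchanges ES 2iL and ELA serum while titles, sources and characteristics keep them apart, and the titles were followed here.

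The files gave reads scaled to the total assigned to mature miRNAs in a library (RPM), from which whole reads were recovered for every value. Where 4 values follow each other below, they stand for the serum libraries first (ES, then ELA) and the 2iL libraries after them (ES, then ELA). Depth ran from 587363 reads in ELA 2iL to 8056984 in ES serum, a 13.7-fold range, so that 3 reads stood for 5.11 RPM in ELA 2iL and for 0.372 RPM in ES serum. Against the labelled cell states, miR-302a, b and d of the primed state summed to 66.5 RPM in ES 2iL, 5178 in ES serum, 5453 in ELA 2iL and 32646 in ELA serum. The sum of miR-291a, 294 and 295 of the ES cell cluster lay between 41028 and 142214 RPM in all 4 libraries. Of other cell types, the endothelial miR-126a-3p had no read in any library, 3 blood miRNAs summed to 1.62 to 8.51 RPM, 3 muscle miRNAs to 0 to 73.2 RPM and 2 neural miRNAs to 262 to 424 RPM. Intervals below are 95% intervals on the reads and cover counting error only, since reads without molecular identifiers are not independent molecules.

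A mature miRNA guides Argonaute proteins to messenger RNAs, mostly through the seed, bases 2 to 8 from its 5′ end. Each hairpin can give a 5p and a 3p strand, of which one is usually kept as the guide and the other mostly degraded. The miR-99/100 family is known for targets in the mTOR pathway and the miR-125 family for roles in blood cells and in development, where miR-125 homologs act beside let-7 in timing differentiation. In ES cells the maturation of let-7 is held back by LIN28, which binds let-7 precursors.

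The mature sequences show which members can share targets. All 7 were found in the RefSeq miRNA table of the GRCm38.p6 assembly, and capitals mark the seed in each.
miR-99a-5p: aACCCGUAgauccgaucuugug
miR-99b-5p: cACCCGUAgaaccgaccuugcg
miR-100-5p: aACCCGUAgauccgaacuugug
miR-125a-5p: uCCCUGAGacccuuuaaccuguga
miR-125b-5p: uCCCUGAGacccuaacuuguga
miR-351-5p: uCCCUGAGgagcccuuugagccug
miR-99b-3p: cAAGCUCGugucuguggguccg
miR-125a-3p: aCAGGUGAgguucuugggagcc
let-7e-5p: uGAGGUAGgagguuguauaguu

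miR-99a-5p, miR-99b-5p and miR-100-5p thus carried 1 seed. Counted from 1 at the 5′ end of miR-99a-5p, miR-100-5p differed from it by U16A alone, and miR-99b-5p by A1C, U11A, U16C and U21C. A read of miR-99a-5p and one of miR-100-5p are therefore a single base apart, and how the counting treated mismatches is not given in the sources used here. miR-125a-5p and miR-125b-5p shared their first 13 bases. miR-351-5p, which is no member by name, shared the miR-125 seed and had its first 8 bases in common with miR-125a-5p. The 3p strands of miR-99b and miR-125a had seeds found in no other member. miR-99a-3p, which is no member and had no read in any library, shared the seed of miR-99b-3p.

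In the mm9 assembly, whose coordinates are used here, miR-99b-5p matched chr17:17967158-17967179 on the plus strand, in a hairpin that overlapped no other gene of GENCODE vM1. let-7e-5p followed at chr17:17967330-17967351, and miR-125a-5p at chr17:17967781-17967804, inside an exon of Ncrna00085 on the same strand. The mature miRNAs of this cluster fit into 683 bp. miR-100-5p lay at chr9:41339520-41339541 in an intron of the lincRNA D230004N17Rik, in a cluster of 50565 bp that holds let-7a and ends with miR-125b at chr9:41390023-41390044. miR-99a-5p lay at chr16:77599185-77599206, in an intron of Gm11146 on the opposite strand, beside let-7c, and a second copy of miR-125b-5p lay at chr16:77646524-77646545 outside annotated genes, in a cluster of 47400 bp. The mature miR-125b-5p sequence had 2 exact matches in the genome, 1 in each of these clusters, so its reads cannot be given to either locus. The other 6 members had 1 match each.

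miR-99b-5p dominated the group in all 4 libraries. It stood at 34737 RPM in ES serum cells and 21828 in the aggregates made from them, against 4557 in ES 2iL cells and 3146 in their aggregates. Both serum libraries were thus above both 2iL libraries, and miR-99b-5p ranked 8 and 9 among all listed miRNAs in ES serum and ELA serum, against 37 and 41 in ES 2iL and ELA 2iL. The 7 members together made up 3.58% of the ES serum library (Wilson interval 3.56 to 3.59%), 2.22% of ELA serum, 0.675% of ES 2iL and 0.455% of ELA 2iL. Of these reads miR-99b-5p held 97.1%, 98.3%, 67.5% and 69.1%. Without it the remaining 6 summed to 0.103%, 0.0389%, 0.219% and 0.140% of all reads, so that each 2iL library was above the serum library of its stage.

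**Figure D1:**
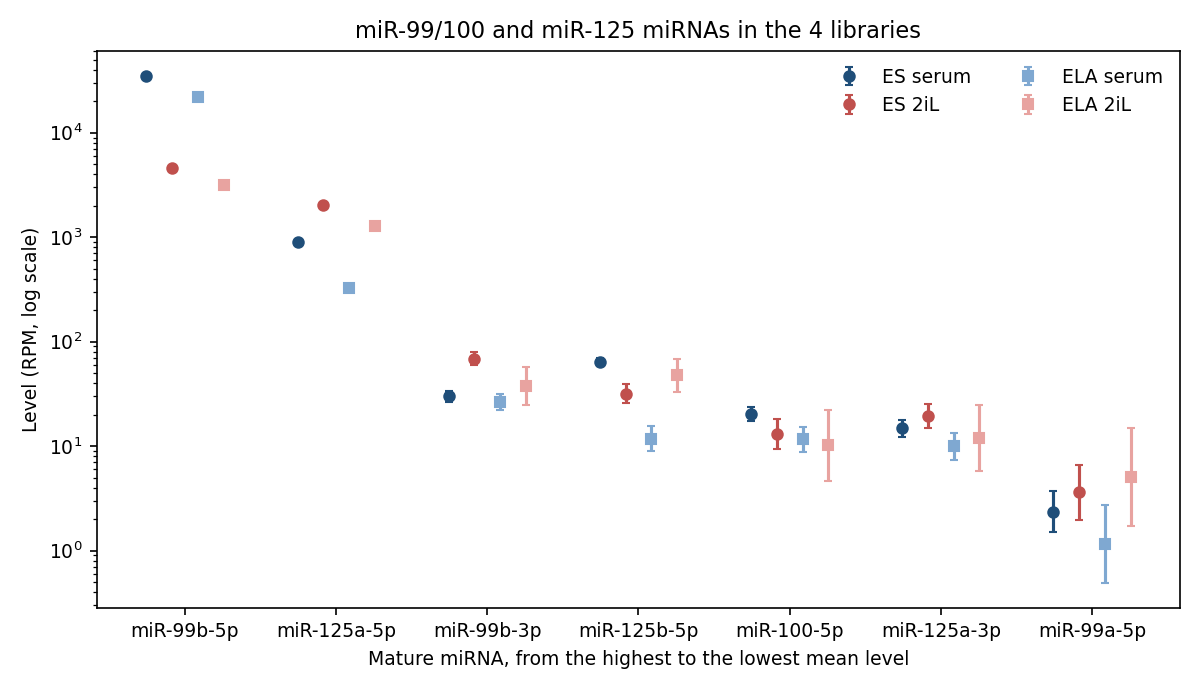
Level of each member in the 4 libraries in RPM on a log axis, with circles for ES cells, squares for ELA, and bars for the 95% Wilson interval on the reads of that single library. miR-99b-5p was higher in both serum libraries and miR-125a-5p in both 2iL libraries, while the bars of miR-99a-5p, miR-100-5p and miR-125a-3p widen in ELA 2iL, where they had 3 to 7 reads.

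miR-125a-5p, encoded downstream of miR-99b and let-7e, was the next in level and had another order. Its level was 899.7 and 328 RPM in the serum libraries, and 2056 and 1292 in the 2iL libraries, from 759 to 7249 reads. Both 2iL libraries were above both serum libraries, the reverse of miR-99b-5p. The ratio of miR-99b-5p to miR-125a-5p reads was accordingly 38.6 (37.7 to 39.5) and 66.6 (63.2 to 70.3) in the serum libraries, and 2.22 (2.15 to 2.29) and 2.43 (2.24 to 2.65) in the 2iL libraries. This ratio is taken within a library and does not depend on the scaling between libraries.

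The remaining members were sparse. miR-125b-5p gave 63.7 and 11.8 RPM in the serum libraries, and 31.8 and 47.7 in the 2iL libraries, the last from 28 reads. It was lowest in ELA serum and highest in ES serum, so neither the media nor the stages separated. The interval in ES serum (58.4 to 69.4 RPM) overlapped that in ELA 2iL (33.0 to 68.9 RPM). miR-100-5p gave 20.4, 11.6, 13.0 and 10.2 RPM, highest in ES serum, where its interval overlapped those of both 2iL libraries. miR-99a-5p gave 2.36, 1.16, 3.61 and 5.11 RPM from 19, 5, 10 and 3 reads. The Wilson intervals of miR-99a-5p in ELA 2iL (1.74 to 15.0 RPM) and in ES serum (1.51 to 3.68 RPM) overlapped. The 3p strand of miR-99b was at 29.9, 26.5, 69.0 and 37.5 RPM, and that of miR-125a at 14.8, 9.98, 19.5 and 11.9 RPM.

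Below miR-99b-5p and miR-125a-5p, the order of members was not resolved in every library. In ELA 2iL the interval of miR-125b-5p (33.0 to 68.9 RPM) overlapped that of miR-99b-3p (24.7 to 56.7 RPM), and those of miR-125a-3p, miR-100-5p and miR-99a-5p overlapped each other. In ES serum, miR-100-5p (17.5 to 23.7 RPM) and miR-125a-3p (12.3 to 17.7 RPM) were such neighbours, and the other adjacent members were separated by more than their counting intervals. Levels of different miRNAs are set side by side in RPM, over mature lengths of 22 to 24 bases. Differences in how well each sequence enters a library were not measured.

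By seed, the miR-99/100 guides summed to 34759 and 21841 RPM in the serum libraries, and to 4574 and 3162 in the 2iL libraries. miR-99b-5p held between 99.5% and 99.9% of these sums, so miR-99a-5p and miR-100-5p added next to nothing to the seed. The miR-125 members summed to 963 and 339.5 RPM in the serum libraries, and to 2087 and 1339.9 in the 2iL libraries, with miR-125a-5p holding between 93.4% and 98.5%. The sum of the miR-125 seed depended on whether miR-351-5p was counted. miR-351-5p, of a cluster on chromosome X, had 965, 619.6, 3792 and 2070.3 RPM, more than miR-125a-5p in each library, by 1.07 times in ES serum and by 1.60 to 1.89 times in the other three. With it the seed came to 1928, 959, 5879.6 and 3410.2 RPM. The 2 other listed miRNAs with this seed, miR-6367 and miR-6394, had no read in any library.

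**Figure D2:**
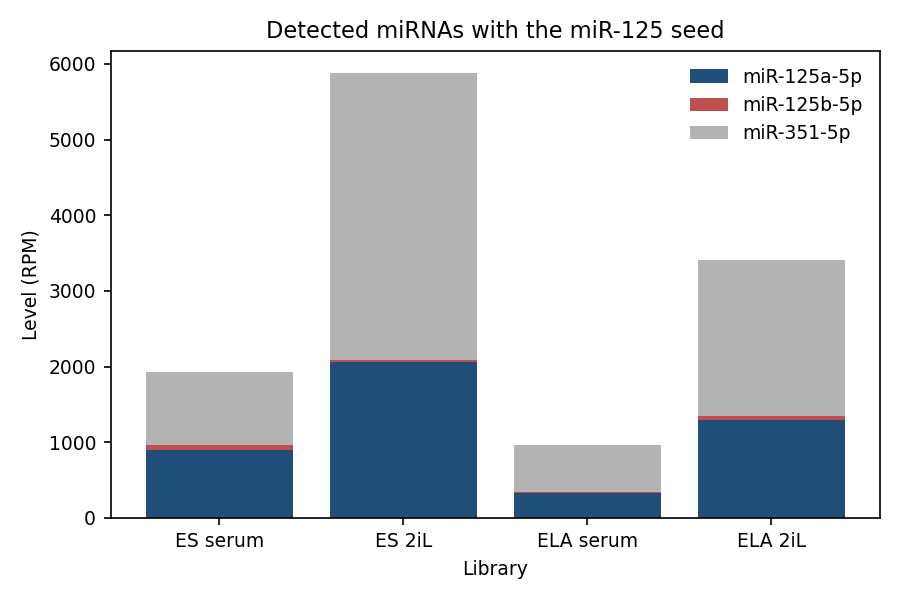
Stacked levels in RPM of the 3 detected miRNAs with the miR-125 seed, one bar per library with no error bars since each condition had 1 library. miR-351-5p was the largest part of each bar, miR-125b-5p stayed at or below 63.7 RPM, and the bars of both 2iL libraries were above those of both serum libraries.

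The first comparison was between media, 2iL against serum, at each stage. miR-99b-5p was 7.62-fold lower in ES 2iL than in ES serum (7.49 to 7.76) and 6.94-fold lower in ELA 2iL than in ELA serum (6.63 to 7.27). miR-125a-5p was 2.28-fold higher in ES 2iL (2.21 to 2.37) and 3.94-fold higher in ELA 2iL (3.61 to 4.31). Hence 2 mature miRNAs from hairpins less than 683 bp apart lay on opposite sides of the comparison at both stages. The intervals compare single pooled libraries and hold no spread between cultures.

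On the log2(RPM + 1) scale, the 2iL minus serum difference of miR-99b-5p was -2.93 in ES cells and -2.79 in ELA. That of miR-99b-3p was 1.18 in ES cells, with a 2.31-fold higher RPM (1.90 to 2.80), and 0.49 in ELA, where the interval on the reads included no difference. The 2 strands of the same hairpin were therefore on opposite sides in ES cells. miR-125a-3p had differences of 0.38 and 0.23, both with intervals that included no difference, and these turned to -0.08 and -0.09 with TMM scaling. miR-100-5p had -0.61, 1.56-fold lower (1.09 to 2.31), in ES cells and -0.17 in ELA, where 6 reads left an interval that included no difference.

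miR-125b-5p had differences of opposite sign at the 2 stages. It was 2.00-fold lower in ES 2iL than in ES serum (1.59 to 2.54) and 4.03-fold higher in ELA 2iL than in ELA serum (2.45 to 6.51). The corresponding log2 differences were -0.98 and 1.92. miR-99a-5p was 1.53-fold and 4.40-fold higher in 2iL, from so few reads that both intervals included no difference.

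Differences between 2 libraries were also read against limits of 5 or more for the mean log2(RPM + 1) of the pair and 1 or more for the size of the log2 difference. The study applied limits of this size to miRNAs lower in ELA, and their use in both directions and between media was added here. In ES cells 4 of the 7 members passed the level limit, and of these miR-99b-3p and miR-125a-5p counted as higher in 2iL, where 32.9% of all 310 miRNAs past the level limit were. miR-99b-5p alone counted as lower, where 14.8% of all were. In ELA 3 members passed the level limit, and miR-125a-5p alone counted as higher, where 20.9% of 302 were, and miR-99b-5p alone as lower, where 8.94% were. The calls in ES cells moved with the scaling of the libraries. With TMM factors, miR-99b-3p came to 0.70 and miR-125a-5p to 0.70, both short of the limit, and miR-125b-5p came to -1.46, past it. The median of all miRNAs past the level limit was 0.50 in ES cells and 0.35 in ELA, and that of the members past it was 0.10 (4 members) and 0.49 (3 members).

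Both stages were then joined in an additive limma model of stage and medium over the 599 miRNAs that had 10 reads or more in 2 or more libraries, among them all 7 members. This model has 1 residual degree of freedom. For medium, miR-99b-5p had a log2 difference of -2.86 with a standard error of 0.44, and its limma adjusted p was 0.0899, the smallest value reached among the 599, which let-7g-5p shared. Only 15 of the 599 had a lower log2 difference. As the median over all 599 was 0.32, the difference relative to it was -3.18. miR-125a-5p had 1.58, or 1.26 relative to the median, with a limma adjusted p of 0.135. The other 5 members lay between -0.39 for miR-100-5p and 0.98 for miR-99a-5p, with limma adjusted p from 0.265 to 0.700.

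At an adjusted p under 0.05, limma called 0 of the 599 miRNAs for medium, 0% of those tested, and 176 had an unadjusted p under 0.05, of which 2 were members, miR-99b-5p and miR-125a-5p. The quasi-likelihood test of edgeR, run on recovered reads, called 64, of which 42 were lower in 2iL, 7.01% of those tested. miR-99b-5p was among the latter with -3.28 and an edgeR adjusted p of 0.00125, and no other member passed. The DESeq2 Wald test called 80, of which 48 were lower in 2iL, 8.01% of the 599. miR-99b-5p was the single member called, at a DESeq2 adjusted p of 1.69e-08, and miR-99a-5p was given no adjusted p. miR-99b-5p thus passed or failed the threshold by the choice of test and setting, while its direction was the same in every setting run. For miR-125a-5p the edgeR adjusted p was 0.142.

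The strand use of miR-99b was taken up because its strands differed between media. The 5p strand outnumbered the 3p strand by 1161 to 1 in ES serum and 825 to 1 in ELA serum, against 66.0 to 1 in ES 2iL and 84.0 to 1 in ELA 2iL. As a share of the hairpin's reads, the 3p strand came to 0.0860% (0.0758 to 0.0976%) and 0.121% (0.101 to 0.145%) in the serum libraries, and to 1.49% (1.30 to 1.72%) and 1.18% (0.778 to 1.77%) in the 2iL libraries. The intervals of the serum libraries did not overlap those of the 2iL libraries. The 3p reads behind these shares numbered 241, 114, 191 and 22.

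The log2 ratio of 5p to 3p reads of miR-99b changed from serum to 2iL by -4.14 (-4.42 to -3.85) in ES cells and by -3.30 (-3.97 to -2.56) in ELA. Both are ratios within a library and the same under any scaling. Among the 99 hairpins with at least 10 reads of each strand in all 4 libraries, the change of miR-99b was the second in size in ES cells, after miR-409 with -4.77, and the first in ELA, ahead of miR-871 with 3.19. The median size over the 99 hairpins was 0.83 in ES cells and 0.76 in ELA. This comparison over hairpins was chosen after the values of miR-99b had been seen. Between stages the ratio of miR-99b changed less, by -0.49 (-0.82 to -0.16) in serum and by 0.35 (-0.30 to 1.06) in 2iL.

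**Figure D3:**
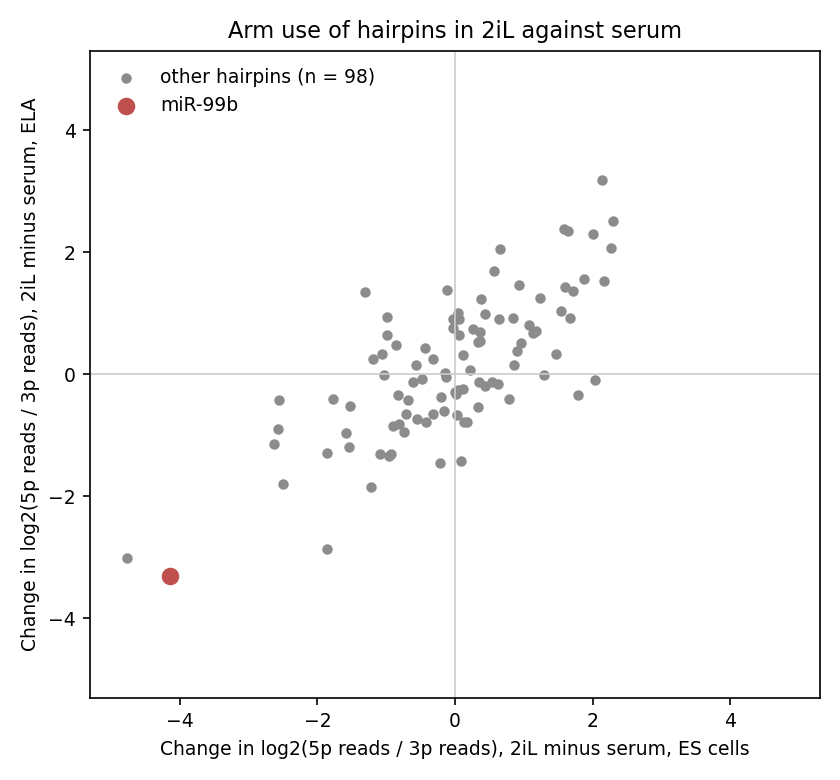
Change in the log2 ratio of 5p to 3p reads between 2iL and serum, for ES cells on the horizontal axis and ELA on the vertical axis, with one point per hairpin and no error bars. miR-99b lies at the lower left, at -4.14 and -3.30, beside a single other hairpin, miR-409, with a lower value in ES cells.

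For miR-125a the 5p strand outnumbered the 3p strand by 60.9 to 1 and 32.8 to 1 in the serum libraries, and by 105 to 1 and 108 to 1 in the 2iL libraries. Its 3p share was 1.62% (1.35 to 1.93%) in ES serum and 0.940% (0.722 to 1.22%) in ES 2iL, so the 3p strand took the smaller share in 2iL, the reverse of miR-99b. In ELA the shares were 2.96% (2.20 to 3.96%) from serum cells and 0.914% (0.443 to 1.87%) from 2iL cells, the latter from 7 reads.

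The let-7 strands of the same clusters gave a pattern of their own. let-7e-5p, encoded between miR-99b and miR-125a, had 11.8 and 5.57 RPM in the serum libraries, and 102 and 25.5 in the 2iL libraries. It was 8.67-fold higher in ES 2iL than in ES serum (6.85 to 11.1) and 4.59-fold higher in ELA 2iL than in ELA serum (2.24 to 9.11). Across the 683 bp of this cluster, 2iL therefore went with a lower miR-99b-5p, a higher let-7e-5p and a higher miR-125a-5p at both stages. For each read of let-7e-5p there were 2946 (2409.8 to 3641) and 3919 (2634 to 6117) reads of miR-99b-5p in the serum libraries, and 44.6 (39.6 to 50.3) and 123 (74.5 to 221) in the 2iL libraries. miR-99b-3p had 2.54 (1.99 to 3.25) and 4.75 (3.04 to 7.72) reads to each of let-7e-5p in the serum libraries. In the 2iL libraries it had 0.675 (0.559 to 0.814) and 1.47 (0.727 to 3.04), lower as well, with ELA intervals that met at their ends. The ratio of miR-125a-5p to let-7e-5p was 76.3 (62.3 to 94.4) in ES serum and 20.1 (17.8 to 22.7) in ES 2iL, whereas the intervals of 58.8 (39.4 to 92.1) in ELA serum and 50.6 (30.5 to 90.9) in ELA 2iL overlapped.

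In the cluster on chromosome 9, let-7a-5p was at 38.7 and 26.0 RPM in the serum libraries, and at 392 and 119 in the 2iL libraries, while miR-100-5p had 20.4 and 11.6 against 13.0 and 10.2 RPM, with an interval in ELA that included no difference. let-7a-5p also matches a locus on chromosome 13, so its reads cannot be given to this cluster alone. miR-125b-1-3p, the strand that does tell the 2 copies of miR-125b apart, was at 21.0, 7.19, 6.87 and 1.70 RPM from 169, 31, 19 and 1 reads, and miR-125b-2-3p had 8 reads in ES serum, 1 in ES 2iL and none in either ELA library. The miR-125b-1 strand was thus the one of the pair with more than 8 reads in a library. Its log2 difference between media was -1.48 in ES cells. In ELA it was -1.60, from 1 read against 31 and with an interval that included no difference. In the cluster on chromosome 16, let-7c-5p had 38.8, 20.2, 19.2 and 32.3 RPM, with differences of -0.98 in ES cells and 0.65 in ELA, the latter with an interval that included no difference, and it also matches a locus on chromosome 15. Of the 10 other mature miRNAs of the 3 clusters, miR-99a-3p, miR-100-3p and let-7c-1-3p had no read, which allows up to 0.372 RPM in ES serum, 0.696 in ELA serum, 1.08 in ES 2iL and 5.11 in ELA 2iL, and let-7a-2-3p had 1 read. Of these 10, 4 passed the filter on low values, and for medium limma called none of the 4 and edgeR 2, let-7e-5p with 2.28 (edgeR adjusted p = 0.0278) and let-7a-5p with 2.36 (edgeR adjusted p = 0.0131), both higher in 2iL. Over all 599 miRNAs tested edgeR called 22 higher in 2iL, 3.67%. With TMM scaling limma called 73 of all 599, 19 higher in 2iL (3.17%) and 54 lower (9.02%), and among them 3 of the 4, 2 higher and miR-125b-1-3p lower in 2iL (-1.90, limma adjusted p = 0.0377), against an edgeR adjusted p of 0.0804 for miR-125b-1-3p.

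**Figure D4:**
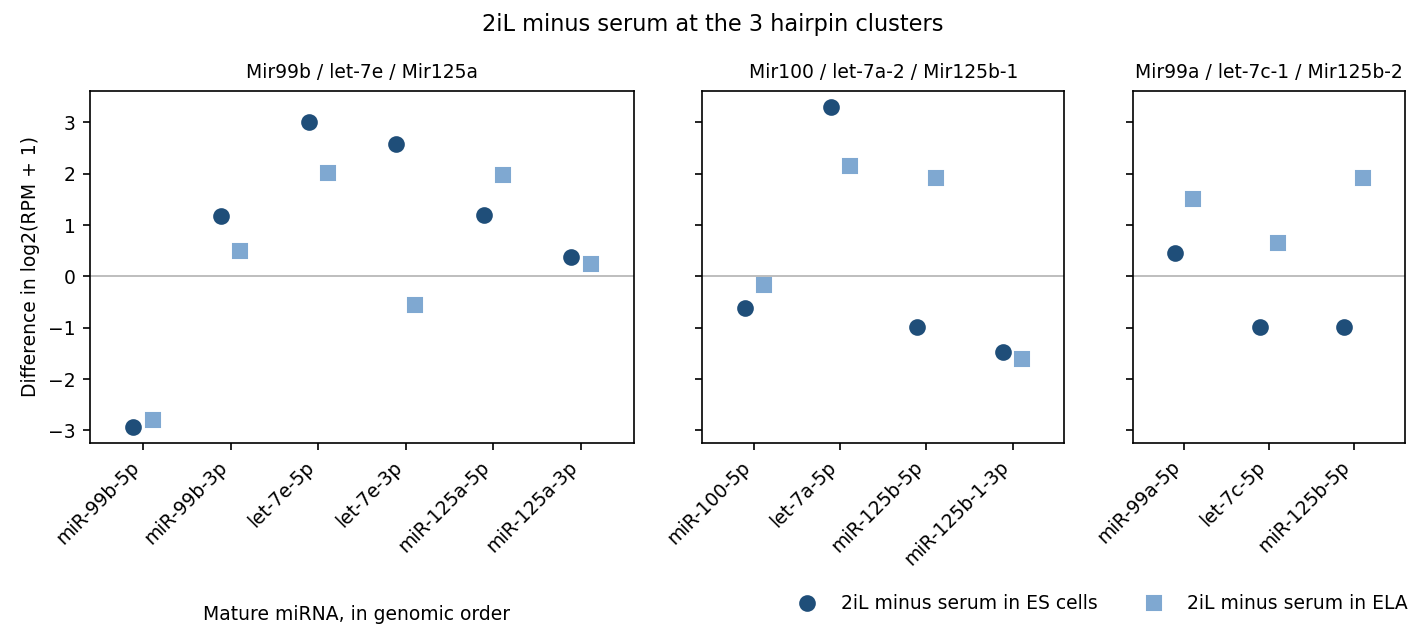
Difference in log2(RPM + 1) between 2iL and serum for mature miRNAs of the 3 hairpin clusters, in genomic order, with circles for ES cells and squares for ELA and no error bars. Those without a read are not drawn, nor are miR-125b-2-3p and let-7a-2-3p, which had at most 8 reads in a library. miR-99b-5p lies near -3 at both stages beside let-7e-5p at 3.01 and 2.01, and miR-125b-5p, drawn under both of its loci, lies on opposite sides at the 2 stages. The points of miR-125a-3p, at 0.38 and 0.23, fall below 0 with TMM scaling.

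Of the 6 other let-7 guides, 5 passed the filter and had higher values in 2iL at both stages, with median log2 differences of 2.49 in ES cells and 2.36 in ELA. Of all 599 miRNAs, 61.4% had a higher value in 2iL in ES cells and 60.3% in ELA. The guide that did not pass, let-7b-5p, had 10 reads in ES serum against 8 in the smaller ES 2iL library, and 0 in ELA serum against 1 in ELA 2iL, with intervals that included no difference. Of the 5, limma called none and edgeR 3, let-7d-5p, let-7f-5p and let-7g-5p, all higher in 2iL, as were 22 of all 599 miRNAs tested. miR-125a-5p had higher values in 2iL as well, and miR-99b-5p lower ones.

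The second comparison was between stages, ELA against the ES cells of the same starting medium. All ELA were collected in minimal medium, so stage and the loss of serum or inhibitors and of LIF cannot be told apart. In serum all 7 members had a lower value in ELA, and for 5 of them the whole interval lay below 0. Of all 599 miRNAs past the filter on low values, 54.9% had a lower value and for 37.7% the whole interval lay below 0. miR-125b-5p was 5.38-fold lower (4.03 to 7.32), miR-125a-5p 2.75-fold lower (2.59 to 2.91), miR-100-5p 1.75-fold lower (1.27 to 2.46), miR-99b-5p 1.59-fold lower (1.58 to 1.60) and miR-125a-3p 1.48-fold lower (1.04 to 2.15). For miR-99a-5p and miR-99b-3p the interval included no difference, and with DESeq2 size factors the log2 difference of miR-99b-3p turned from -0.17 to 0.02. The interval of miR-125a-3p ended at -0.05 on the log2 scale. Its log2 difference moved from -0.52 to -0.43 with TMM and to -0.35 with DESeq2 size factors. The median log2 difference was -0.67 over the 7 members and -1.06 over miR-99b-5p and miR-125a-5p, the 2 that passed the level limit, beside 0.08 over the 288 miRNAs past it. Of these 2 members miR-125a-5p was lower by the limits given above, where 14.6% of all were, and miR-125b-5p with -2.33 missed the level limit, its mean log2 level being 4.85.

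In 2iL, 5 of the 7 members had a lower value in ELA, as had 59.1% of all 599. Of the 4 that passed the level limit none was lower by 1 or more, where 25.2% of all 314 miRNAs past it were. miR-99b-3p was 1.84-fold lower (1.18 to 3.01), miR-125a-5p 1.59-fold lower (1.47 to 1.72) and miR-99b-5p 1.45-fold lower (1.38 to 1.52). The intervals of the other 4 included no difference, with miR-125b-5p at 0.57 and miR-99a-5p at 0.40 on the log2 scale, both higher in ELA. The median log2 difference was -0.53 over the 7 members and -0.60 over the 4, beside -0.30 over the 314.

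In the joint model all 7 members had a lower fitted value in ELA than in ES cells, as had 347 of all 599 miRNAs. The values ran from -0.12 for miR-99a-5p to -1.06 for miR-125a-5p, beside a median of -0.22 over the 599 miRNAs. Relative to that median miR-99a-5p was at 0.11 and miR-125a-5p at -0.84, and with DESeq2 size factors the value of miR-99a-5p was 0.02. miR-99b-5p had -0.60 with a limma adjusted p of 0.456. The limma adjusted p of the 7 lay between 0.268 for miR-125a-5p and 0.911 for miR-99a-5p. limma called 0 of 599 miRNAs for stage, 0% of those tested, and 125 had an unadjusted p under 0.05, none of them a member. edgeR called 39, 6.51% of those tested, and none was a member. Of the 4 other cluster miRNAs tested, neither tool called any for stage.

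The summed level of mesenchymal markers was, like most members, lower in ELA in both media. So was that of pluripotent markers, at 61648, 41028, 142214 and 109569 RPM. The neural sum, at 424, 291, 299 and 262 RPM, was lower in ELA as well. Primed and muscle sums were higher in ELA in both media, and blood markers went both ways. The 5 mesenchymal miRNAs, led by miR-143-3p, summed to 3162 and 1475 RPM in the serum libraries, and to 4847 and 1985 in the 2iL libraries. In serum 4 of these 5 were lower in ELA, and in 2iL 3 of 5, with miR-214-3p at 0 to 3 reads. Fewer cells of a type and less of an miRNA per cell cannot be told apart in these libraries. The part of such cells in the members' differences was not tested.

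Among the 292 miRNAs outside the groups above whose mean log2(RPM + 1) reached 5, those with the most similar profile over the 4 libraries were looked for, by the Euclidean distance between log2 values centred on their own mean. The mean profile of miR-99b-5p and miR-125a-5p lay nearest to miR-3057-5p (distance 0.0884), miR-674-3p, miR-151-5p, miR-18a-3p and miR-146b-5p (0.419), against a median distance of 1.74. Since miR-99b-5p and miR-125a-5p lay on opposite sides between media, this mean does not give the medium difference of either. Taken alone, a choice made after their values were seen, miR-99b-5p lay nearest to miR-21a-3p (0.771), miR-871-3p (1.20) and miR-146a-5p (1.20), against a median of 3.54. miR-21a-3p had 489 and 199 RPM in the serum libraries, and 82.8 and 32.3 in the 2iL libraries. miR-125a-5p alone lay nearest to miR-291b-5p (0.508), miR-669o-5p (0.510) and miR-331-3p (0.531), and at 0.654 from miR-351-5p, than which 4 of 300 miRNAs were nearer. The distance of miR-99b-5p to miR-125a-5p was 4.48, and 256 of 300 miRNAs were nearer to miR-99b-5p. The mean profile of miR-99a-5p, miR-100-5p and miR-125b-5p lay nearest to miR-320-3p (0.343), miR-10a-5p, miR-335-3p, miR-7a-5p and miR-466h-5p (0.540), against a median of 1.47. Of its members, miR-99a-5p was highest in ELA 2iL, from 3 reads, and miR-100-5p and miR-125b-5p were highest in ES serum. For each of them the intervals of these 2 libraries overlapped. The ratio of miR-125b-5p to miR-100-5p reads was 3.13 (2.62 to 3.75) in ES serum and 1.02 (0.677 to 1.54) in ELA serum. miR-125b-5p and miR-100-5p thus had no common profile. Each distance rests on 4 libraries.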

How the data were processed

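Small RNA was sequenced from 4 libraries, 1 for each combination of stage (ES, ELA) and medium (serum, 2iL). The authors used CASAVA 1.8, Trimmomatic, Bowtie with mm9, miRBase 20 annotation and featureCounts. The deposited RPM values are reads relative to the library total over 1907 mature miRNAs. The handling of reads with several matches is not given in the sources used here. Every RPM value was a whole multiple of that of 1 read, within 0.01 reads (100% of values), so reads were recovered and totals ran from 587363 to 8056984. Contrasts were fitted with limma 3.58.1 in R 4.3.3 on log2(RPM + 1) with terms for stage and medium, over the 599 miRNAs that had 10 reads or more in 2 or more libraries. Tests were two-sided and adjusted by the Benjamini-Hochberg method. The test for counts, edgeR 4.0.16 (quasi-likelihood), and DESeq2 1.42.0 (Wald) were run on the recovered reads with the same terms. With 1 library per condition the spread comes from the departure of stage and medium from additivity, not from replicates. Pairs of libraries were compared by the log2(RPM + 1) difference without a test, folds being ratios of RPM whose 95% intervals are exact (Clopper-Pearson). Shares have Wilson 95% intervals. Pseudocounts of 0.5 and 5, no filter, TMM, DESeq2 size factors and totals without the 5 most abundant miRNAs were alternatives. The fitting steps were tested on simulated data. Sequences came from the RefSeq table and were located in mm9 by exact match (GENCODE vM1). Named miRNAs were the members, the other mature miRNAs of their clusters, other let-7 guides, miRNAs sharing a seed, and the 5 nearest profiles to each of 2 mean profiles; hairpin ranks and single-member profiles were added after seeing the data. The members and lists were chosen with earlier results of these data known. The markers were miRNAs of pluripotent, primed, mesenchymal, endothelial, blood, neural and muscle cells.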

Additional observations from a re-analysis of the deposited data

Results flagged for a closer look

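miR-125b-5p had differences of opposite sign under the same comparison in both directions of the design. ELA minus ES was -2.33 on the log2(RPM + 1) scale in serum and 0.57 in 2iL, values that are 2.90 apart. The interval on the reads of the 2iL value included no difference. 2iL minus serum was -0.98 in ES cells and 1.92 in ELA, again 2.90 apart. Both describe the same 4 libraries, in which miR-125b-5p had 513 and 51 reads in serum (ES, then ELA) and 88 and 28 reads in 2iL. Whether the stage difference depends on medium was not tested, nor whether the medium difference depends on stage, because each condition had 1 library.

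miR-99a-5p was lower in ELA than in ES cells in serum (-0.64) and higher in 2iL (0.40), values that are 1.04 apart. These came from 3 to 19 reads per library, both intervals on the reads included no difference, and the difference was not tested.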

How the results depend on the processing

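For the 7 members, 112 values of the stage and medium contrasts were recomputed, of which 101 kept their direction and side of the threshold, 6 were past the threshold only in the alternative and 5 changed sign. The 101 include the DESeq2 Wald values of miR-99a-5p, which kept their direction but had no adjusted p. The 6 were miR-99b-5p for medium, with adjusted p of 0.0276 (pseudocount 5 RPM), 2.87e-05 (no filter), 0.00321 (TMM), 4.20e-05 (totals without the 5 most abundant miRNAs), 0.00125 (edgeR) and 1.69e-08 (DESeq2 Wald), so that 1 member was called in each of these, and it missed the threshold with a pseudocount of 0.5 RPM (0.110) and with DESeq2 size factors (0.0968). Signs changed for miR-99a-5p by stage (0.0177 with DESeq2 size factors) and for miR-125a-3p by medium (-0.0847 with TMM, -0.0465 with DESeq2 size factors, -0.0902 with edgeR, -0.0442 with DESeq2 Wald). In the same 6 settings the calls among all miRNAs were 9, 99, 45, 89, 39 and 50 for stage and 38, 130, 73, 109, 64 and 80 for medium. Without the filter these were calls among 1202 miRNAs, and among the 599 in the other settings. Of the 4 other cluster miRNAs tested, limma called 0 for medium as reported, 2 with a pseudocount of 5, and 3 with TMM or totals without the 5 most abundant. The median of the 599 miRNAs moved from 0.32 to -0.07 for medium and from -0.22 to -0.07 for stage with TMM. Of the limma fits for medium, that on log2(RPM + 1) as reported made 0 calls, while TMM gave 19 higher and 54 lower, pseudocount 5 gave 23 and 15, no filter 73 and 57, and totals without the 5 most abundant 49 and 60. Members lower by the limits on level and difference in ELA in serum numbered 2 with TMM, DESeq2 size factors or a pseudocount of 5. In ES 2iL 2 were lower and 0 higher with TMM, DESeq2 size factors or totals without the 5 most abundant. The share of all miRNAs past these limits was taken only on the reported log2(RPM + 1) values, so these counts have no share beside them. Of 140 recomputed differences between 2 libraries, 114 moved by less than their counting interval. With miR-351-5p the miR-125 seed took 0.193% and 0.0959% of reads in serum (ES, then ELA) and 0.588% and 0.341% in 2iL, against 0.0963%, 0.0340%, 0.209% and 0.134% for the members. The cause of these changes was not tested. The labels give no replicate numbers to block on, and the fit with terms for stage and medium already compares stages within a starting medium. Leaving out a library would leave no residual degree of freedom. Depth limits miR-99a-5p, miR-100-5p and miR-125a-3p, which had 3 to 7 reads in ELA 2iL.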
